A study of Mus musculus with 6 samples.

Results

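Expression was compared between MondoA knockout and wild-type induced regulatory T (iTreg) cells, which are naive CD4 T cells turned into Foxp3-expressing cells in culture. The wild-type library came from MondoA+/+Foxp3Cre mice and the knockout library from MondoAfl/flFoxp3Cre mice, both on the C57BL/6 strain and 8 weeks old, so cells of both genotypes carry Foxp3-Cre. Naive cells were sorted as CD4+ YFP- cells with low CD44 and high CD62L and kept for 4 days under iTreg polarizing conditions, whose cytokines the labels do not list. The pair makes up 2 of the 6 bulk RNA sequencing libraries. The other 4 are natural Treg (nTreg) cells of the same genotypes, sorted as CD4+CD25hiYFP+ cells from spleen and lymph nodes, either resting or stimulated for 48 h through CD3 (antibody at 5 μg/ml) and CD28 (antibody at 2 μg/ml) with IL-2 at 100 U/ml. Each group had 1 library, so no iTreg difference has a replicate check, and nothing in the labels says how many animals or cultures a library holds. Of 15887 genes counted in either iTreg library, 10214 reached the chosen minimum of 50 counts in the higher library (about 5.10 CPM, counts scaled to a library of 1000000) and were compared. They held 99.5% of the counts of each library.

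MondoA, encoded by Mlxip, is a transcription factor that pairs with MLX, responds to glucose 6-phosphate and binds carbohydrate response elements in target promoters. Its best known targets are the alpha-arrestins Txnip, which limits glucose uptake and binds thioredoxin, and Arrdc4. Foxp3-Cre acts once Foxp3 is switched on, and the naive cells were sorted as YFP-negative. In this model deletion would therefore begin mainly during the culture, but whether any sorted cell had deleted Mlxip before was not measured. The labels do not say which part of Mlxip is floxed. In bulk RNA, fewer cells of a type and less RNA per cell cannot be told apart.

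Total expected counts were 9760285 in the wild-type and 10126865 in the knockout iTreg library. The 12 T cell identity genes measured, such as Cd3e, were all present, and the Treg master regulator Foxp3 stood at 492 normalised CPM in the wild-type and 482 in the knockout library. Xist, a sex-linked transcript, stood at 5 counts in each iTreg library. In the wild-type and knockout resting nTreg libraries it stood at 7132 and 5247 counts. A difference in sex between iTreg and resting nTreg libraries was not tested and cannot be told apart from cell state. Ribosomal protein genes took 8.92% of wild-type and 11.7% of knockout iTreg counts.

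Mlxip measured 167 CPM in the wild-type and 70.7 CPM in the knockout iTreg library, against 142 and 108 CPM in resting and 152 and 87.1 CPM in stimulated nTreg cells. The knockout value was therefore the lower of each pair, with log2 folds of -0.40 in resting, -0.80 in stimulated and -1.24 (95% interval -1.37 to -1.11) in iTreg cells, the last being -0.80 once a trend of the folds on transcript length, which was strong in iTreg cells, was removed. All intervals here cover counting error only. Arrdc4, the alpha-arrestin with the steepest difference, reached 39.6 CPM in the wild-type but 2.56 CPM in the knockout iTreg library (log2 fold -3.85, -4.60 to -3.37, and -3.93 with the trend removed). Its wild-type level was higher in iTreg cells than in resting (15.8 CPM) or stimulated (10.4 CPM) nTreg cells, while the knockout level in iTreg cells was close to the 2.57 CPM of knockout resting cells. Txnip lay at 303 and 72.7 CPM in wild-type and knockout iTreg cells, between the resting pair (1498 and 405 CPM) and the stimulated pair (141 and 24.3 CPM). In all 3 states the knockout libraries were lower for both genes. Arrdc3, a paralog not known as a classical MondoA target, differed by -0.60 (-1.24 to -0.03), and Arrdc1 was higher in knockout iTreg cells by 0.84, short of 2-fold. MLX itself, the partner of MondoA, differed by 0.27 (Mlx, 0.08 to 0.46). Mxi1, a MAX-binding repressor of the MYC network, was higher by 0.74 (0.60 to 0.89) as measured and by 1.02 with the length trend removed, and Mga, a MAX-binding repressor with a transcript of 13770 bases, stood at -1.40 (-1.52 to -1.27) as measured and -0.63 with the trend removed.

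The promoters of Txnip and Arrdc4 are shown because these are the best known targets of MondoA and were lower in every knockout library. The windows span 250 bases before to 50 after the annotated start, are RefSeq sequence on build GRCm38.p6 and run 5′ to 3′ on the strand of the gene. Txnip lies at chr3:96557707-96558006 on the plus strand and Arrdc4 at chr7:68749189-68749488 on the minus strand.
Txnip: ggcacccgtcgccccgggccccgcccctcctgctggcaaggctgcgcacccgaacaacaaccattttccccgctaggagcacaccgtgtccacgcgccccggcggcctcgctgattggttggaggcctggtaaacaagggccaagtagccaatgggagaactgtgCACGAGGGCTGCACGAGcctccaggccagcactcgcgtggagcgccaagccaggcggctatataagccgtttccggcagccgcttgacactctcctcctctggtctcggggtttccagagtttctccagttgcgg
Arrdc4: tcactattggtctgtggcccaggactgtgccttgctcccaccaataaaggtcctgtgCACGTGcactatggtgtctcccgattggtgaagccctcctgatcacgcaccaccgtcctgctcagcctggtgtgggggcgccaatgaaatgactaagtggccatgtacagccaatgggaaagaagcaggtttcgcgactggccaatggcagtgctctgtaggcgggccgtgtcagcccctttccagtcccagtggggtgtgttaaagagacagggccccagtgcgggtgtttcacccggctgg
Capitals in Txnip mark a pair of half-sites written as CACGNG and, after 5 bases, CNCGNG, the layout of a carbohydrate response element, beginning 85 bases before the start. Of 32851 promoter windows, 0.365% held this pair on either strand. Capitals in Arrdc4 mark CACGTG, an E-box that reads the same on both strands, beginning 193 bases before the start. CACGTG was found in 7.15% of the windows. The pair of half-sites was searched for in the Arrdc4 window too, and these letters were not in it.

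The iTreg difference followed transcript length. Genes of the shortest decile (up to 1185 bases) had a median log2 fold of 0.51, higher in knockout cells, and the median declined through every decile to -0.58 among genes over 6096 bases. The slope was -0.34 log2 per 2-fold increase in length across 10214 genes (Pearson r = -0.47 across genes, which are not independent replicates). In resting and stimulated nTreg cells the slopes were -0.06 and -0.03. The slope was present at low, middle and high expression alike (-0.31, -0.38 and -0.36). Against the mean of all 6 libraries, wild-type iTreg cells deviated toward long genes (slope 0.13) and knockout iTreg cells toward short ones (-0.19), and the 4 nTreg libraries lay between -0.03 and 0.05. Transcripts of at least 5 kb took 23.7% of the counts of wild-type and 16.4% of knockout iTreg cells, and 19.8 to 21.4% in nTreg cells. With 1 library per genotype, a genotype effect on length and a difference between these 2 libraries cannot be told apart. Folds are given as measured unless stated, and list counts and many folds also with a straight line on log2 length removed.

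**Figure D1:**
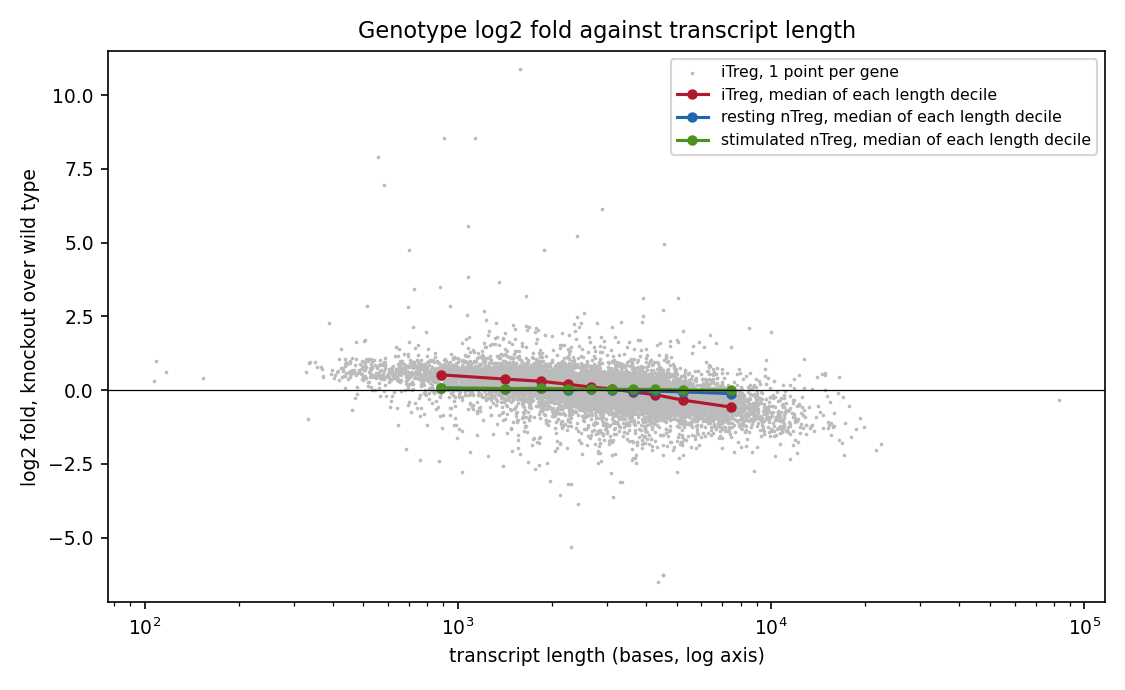
Log2 fold of knockout over wild type (y axis) against transcript length in bases (x axis, log scale). Grey points are the 10214 genes of iTreg cells, and lines join the medians of the 10 deciles of genes ordered by length in iTreg (red), resting nTreg (blue) and stimulated nTreg (green) cells. The iTreg line falls from 0.51 to -0.58 and the nTreg lines stay between 0.08 and -0.12.

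At a 2-fold threshold, 271 genes (2.65%) were higher and 536 (5.25%) lower in knockout iTreg cells. With the length trend removed, 215 (2.10%) were higher and 378 (3.70%) lower, and 167 higher and 308 lower genes met the threshold both ways. The 95% interval lay wholly past 2-fold for 131 of the 271 and 278 of the 536. The lower genes were long as measured (median 4604 bases, against 1609 for the higher ones). With the trend removed both groups were close to the typical length (2821 and 2874 bases), which removing the line makes likely beforehand. Fewer genes were 2-fold apart in resting nTreg cells (146 higher and 151 lower of 10324, or 1.41% and 1.46%) and in stimulated ones (55 and 52 of 10142, or 0.542% and 0.513%). Among the 271 higher genes, 195 reached 50 counts in resting and 196 in stimulated cells. Of these, 26 and 28 were also at least 2-fold higher there. Among the 536 lower genes the corresponding numbers were 30 of 463 and 29 of 495. Across genes, the iTreg folds correlated with the resting folds at r = 0.34 over 9563 genes and with the stimulated folds at r = 0.42 over 9793, both with the trend removed. The 3 pairs share no library but their genes share lengths and annotation.

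**Figure D2:**
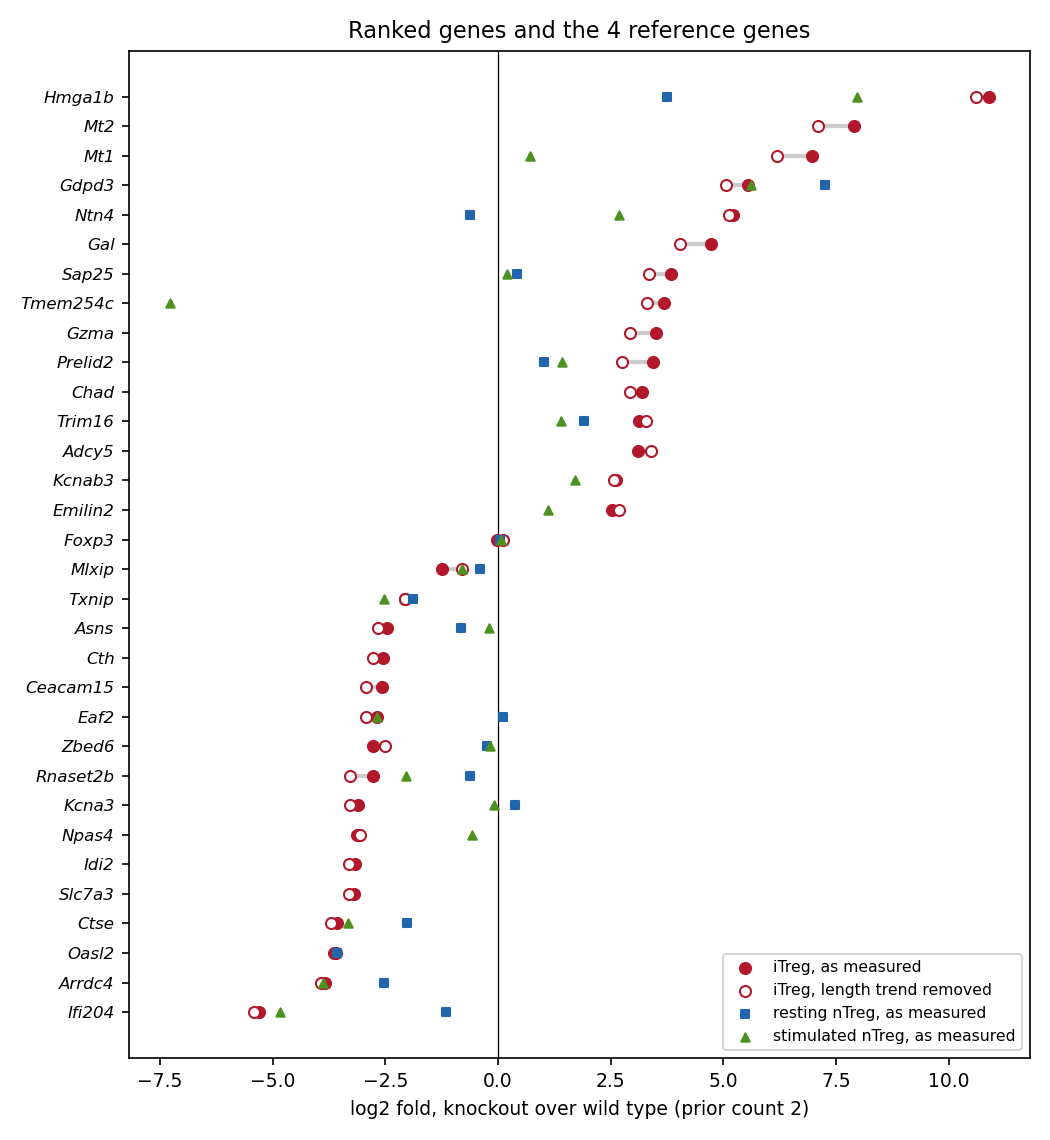
Log2 fold of knockout over wild type (x axis, prior count 2) for the 15 largest increases and 14 of the 15 largest decreases in iTreg cells, and for Mlxip, Txnip, Arrdc4 and Foxp3 (Arrdc4 belongs to both). Filled and open red circles are the iTreg fold as measured and with the length trend removed, blue squares and green triangles are resting and stimulated nTreg cells where a gene had at least 50 counts. For most genes the circles lie close together, and Gdpd3, Arrdc4 and Ctse stand apart from 0 in nTreg cells too, whereas Sap25 and Kcna3 lie near 0 there.

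The 15 steepest decreases, ranked by the smaller of both folds, combined a few functions. Slc7a3, a cationic amino acid transporter, had 108 counts in the wild-type and 10 in the knockout library. Cth (80 and 12 counts), which makes cysteine, and Asns (1008 and 179), asparagine synthetase, are amino acid enzymes. Kcna3, the potassium channel Kv1.3 that sustains calcium entry in T cells, had 325 and 36 counts, and Npas4, an activity-induced transcription factor, 322 and 35. The others shown were Ifi204, Arrdc4, Oasl2, Ctse, Idi2, Rnaset2b, Eaf2, Ceacam15 and Zbed6. Ifi204 (117 counts and 1), Oasl2 (85 and 5) and Ctse (663 and 54) were also lower in the knockout library of both nTreg pairs, by log2 folds of -1.15 and -4.85, -3.58 and -3.65, and -2.01 and -3.33 in resting and stimulated cells.

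The 15 steepest increases were led by Hmga1b, which had no count in the wild-type library and 3773 counts in the knockout library. It is a near-identical copy of Hmga1, whose counts went the other way (4195 and 1142), and the sum of both genes differed by only 0.23. Hmga1b was also higher in the knockout library of the resting and stimulated nTreg pairs, by log2 folds of 3.76 and 7.95. How reads were shared between these copies was not tested. Nor was it tested for Tmem254c, whose family sum differed by 0.97, or for Rnaset2b among the decreases (0.32 for the sum with Rnaset2a). Gdpd3, a lysophospholipase gene, had 9 and 509 counts, and its knockout library was likewise the higher of the resting pair (9 and 1739) and the stimulated pair (4 and 285). Ntn4, a secreted netrin, had 5 and 256 counts in iTreg cells and 17 and 119 in stimulated cells, but 171 and 116 in resting cells. Gal, which encodes the neuropeptide galanin, had 0 and 51 counts, and with the wild-type library set to the floor of 3 counts was at least 17.1-fold higher. The remaining members were Mt1, Mt2, Sap25, Trim16, Adcy5, Chad, Gzma, Prelid2, Kcnab3 and Emilin2.

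Part of the ATF4 targets and of the amino acid transporters were lower in knockout iTreg cells. ATF4 is the transcription factor that turns on amino acid synthesis and transport when amino acids run short or the integrated stress response is active. Of 17 of its known targets with at least 50 counts, 7 were 2-fold lower and 0 higher, both as measured and with the length trend removed. The share of all genes 2-fold lower was 5.25% as measured and 3.70% with the trend removed. The list median was -0.65 as measured and -0.79 with the trend removed, beside 0.06 and 0.02 over all genes, and it was 0.11 in resting and 0.10 in stimulated cells. Asns stood at 103 CPM (wild type) and 18.3 CPM (knockout) in iTreg cells, against 5.57 and 3.04 CPM in resting and 51.4 and 44.6 CPM in stimulated cells. The wild-type iTreg library was thus the highest of the 6 and its knockout partner lay below both stimulated ones (log2 fold -2.47, -2.72 to -2.26). Chac1, which degrades glutathione, lay at 11.8 and 2.46 CPM in iTreg cells and at most 0.92 CPM elsewhere (-2.18, -2.97 to -1.62). Gpt2, a mitochondrial alanine transaminase, differed by -2.36 (-2.96 to -1.91), Stc2 by -1.76, Pycr1, a proline enzyme, by -1.51, and Trib3, a pseudokinase that restrains ATF4, by -1.30. Atf5, a related transcription factor, lay at 101 and 33.2 CPM in iTreg cells, with nTreg libraries between 6.47 and 21.8 CPM (-1.61, -1.80 to -1.43). The transcript of Atf4 itself, which is mainly controlled at translation, differed by -0.24 as measured and -0.50 with the trend removed. Ddit3 and Sesn2, stress genes on the list, stayed within 2-fold, at -0.22 and -0.08 as measured and -0.79 and -0.11 with the trend removed. Slc7a11, the cystine transporter, lay on the other side of 0 at 0.22 and 0.79.

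The Asns promoter is shown because Asns had the largest fold among the 7 lower targets (RefSeq, GRCm38.p6, chr6:7693160-7693459, minus strand, 5′ to 3′ on the strand of the gene).
Asns: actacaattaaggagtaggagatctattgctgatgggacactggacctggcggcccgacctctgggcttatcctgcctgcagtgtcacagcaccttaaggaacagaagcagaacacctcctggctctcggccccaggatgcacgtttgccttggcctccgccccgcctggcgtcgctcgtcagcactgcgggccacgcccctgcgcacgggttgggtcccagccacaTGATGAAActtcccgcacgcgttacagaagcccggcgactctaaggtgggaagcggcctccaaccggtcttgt
Capitals mark TGATGNAA, the core letters of an amino acid response element, which begins 23 bases before the start. On either strand, 3.97% of all promoter windows held these letters. Counting a gene if any of its windows held them, 7 of the 17 targets did, a count by gene and not by window. Of the members 2-fold lower, Asns, Chac1, Pycr1 and Trib3 carried it, and Gpt2, Stc2 and Atf5 did not. The other carriers, Atf3, Nupr1 and Slc7a11, were not 2-fold lower as measured.

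Among 14 amino acid transporters, 6 were 2-fold lower as measured and 5 with the length trend removed, with 0 higher (median -0.97 and -0.68). All genes together gave 5.25% and 3.70% lower. Slc1a5, the glutamine transporter ASCT2, lay at 626 and 290 CPM in wild-type and knockout iTreg cells, against 195 and 196 CPM in resting and 484 and 364 CPM in stimulated cells. The iTreg log2 fold was -1.11 (-1.18 to -1.05) and the length-corrected value -1.13. Slc7a5, the light chain of the large neutral amino acid transporter LAT1, lay at 346 and 154 CPM (-1.17, -1.26 to -1.08), and its heavy chain Slc3a2 differed by -0.41. Slc1a4, an alanine, serine and cysteine carrier, differed by -1.79, Slc7a3 by -3.19 and Slc36a4 by -1.17. Slc7a1, a cationic transporter of 7155 bases, was past the threshold only as measured (-1.28, and -0.83 with the trend removed). The serine and one-carbon enzymes did not share the pattern: 0 of 22 were 2-fold apart, with Psat1 lowest at -0.78 and Mthfd2 at -0.65. Nor did the 20 aminoacyl-tRNA synthetases, of which 0 were 2-fold apart and Iars stood lowest at -0.87.

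Of 19 genes switched on by T cell receptor signalling, 7 were 2-fold lower and 1 higher as measured, and 8 lower and 0 higher with the length trend removed. Their median was -0.62 and -0.82, against -0.08 in resting and 0.06 in stimulated cells. Over all genes, 5.25% were 2-fold lower as measured and 3.70% with the trend removed. The 7 were Egr1 and Egr3, early zinc finger factors, the orphan nuclear receptors Nr4a1, Nr4a2 and Nr4a3, the NF-kB subunit Rel and the AP-1 member Fosl2. Egr3 measured 148 CPM in the wild-type and 37.9 CPM in the knockout iTreg library, against 166 and 141 CPM in stimulated and 4.18 and 4.57 CPM in resting cells. Nr4a3 lay at 228 and 66.5 CPM in iTreg cells and at 314 and 405 CPM in stimulated cells. The wild-type iTreg library stood near the stimulated level for Egr3 and below both stimulated libraries for Nr4a3. For both genes the knockout iTreg library was well below the stimulated level. The folds were -1.96 (-2.13 to -1.80) for Egr3, -1.78 (-1.91 to -1.65) for Nr4a3, -1.55 (-1.67 to -1.44) for Egr1 and -1.88 (-2.17 to -1.63) for Rel. With the trend removed they were -1.81, -1.53, -1.52 and -1.93. Rel encodes c-Rel, which is needed for Foxp3 induction in thymic Treg development. Tnfrsf9, the receptor 4-1BB, was the additional one with the trend removed (-0.98 as measured and -1.14), and Egr2 stood just short of 2-fold both ways (-0.97 and -0.95). Not all induced genes followed: Irf4, needed for effector differentiation, differed by -0.29, Nfatc1 by -0.62, Cd69 by -0.54 and Jun by 0.68. Batf, a partner of IRF4, was past 2-fold higher only as measured (1.02, and 0.46 with the trend removed).

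Zinc genes held the widest increases apart from copies. Mt1 and Mt2 encode metallothioneins, small proteins that bind zinc and other metals and are induced by them through the metal-sensing factor MTF1. Mt1 was at 0.408 CPM in the wild-type iTreg library and at 75.8 CPM in the knockout one, against 0.796 and 1.90 CPM in resting and 7.84 and 13.0 CPM in stimulated cells. Mt2 had no count in wild-type iTreg cells and 473 in knockout cells, which makes it at least 158-fold higher when the empty library is set to 3 counts. Its nTreg counts were 3 and 1 in resting and 38 and 48 in stimulated cells. In both genes the wild-type iTreg library was the lowest or close to the lowest of the 6 and the knockout iTreg library by far the highest. Slc30a1, which exports zinc and is induced by MTF1, lay at 2.14 and 9.22 CPM (log2 fold 2.01, 1.41 to 2.87, and 2.30 with the trend removed). Slc39a10, a zinc importer, lay at 66.0 and 19.6 CPM (-1.74, -1.99 to -1.52, and -1.47). Mtf1 itself differed by -0.04. These genes were gathered after their values were seen. Over both metallothioneins, Mtf1 and all zinc transporters of the Slc30 and Slc39 families, 21 genes reached 50 counts, and 17 of them stayed within 2-fold both ways. Of the 21, 3 were higher and 1 lower, both ways. Shares over all genes were 2.65% higher and 5.25% lower as measured, and 2.10% and 3.70% with the trend removed.

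The promoters of both metallothionein genes are shown because they carry the widest difference (RefSeq, GRCm38.p6, 5′ to 3′). Mt1 lies at chr8:94178839-94179138 and Mt2 at chr8:94172368-94172667, both on the plus strand.
Mt1: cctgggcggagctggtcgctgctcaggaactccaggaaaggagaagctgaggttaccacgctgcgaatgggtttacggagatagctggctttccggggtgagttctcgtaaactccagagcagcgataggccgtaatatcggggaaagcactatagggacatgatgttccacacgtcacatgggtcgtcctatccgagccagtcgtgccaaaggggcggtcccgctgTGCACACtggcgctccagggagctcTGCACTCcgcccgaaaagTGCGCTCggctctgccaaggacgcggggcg
Mt2: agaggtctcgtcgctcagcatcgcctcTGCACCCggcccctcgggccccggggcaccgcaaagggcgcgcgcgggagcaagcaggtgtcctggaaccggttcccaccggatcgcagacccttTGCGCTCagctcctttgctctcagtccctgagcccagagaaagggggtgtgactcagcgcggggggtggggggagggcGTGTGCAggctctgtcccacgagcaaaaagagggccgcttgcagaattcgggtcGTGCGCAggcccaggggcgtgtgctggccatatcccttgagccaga
Capitals mark the core letters of metal response elements, TGCACNC or TGCGCNC on either strand, 3 in Mt1 and 4 in Mt2. Such letters are common, with 25.7% of all promoter windows holding at least 1, and 2 were found in the window of Slc30a1.

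**Figure D3:**
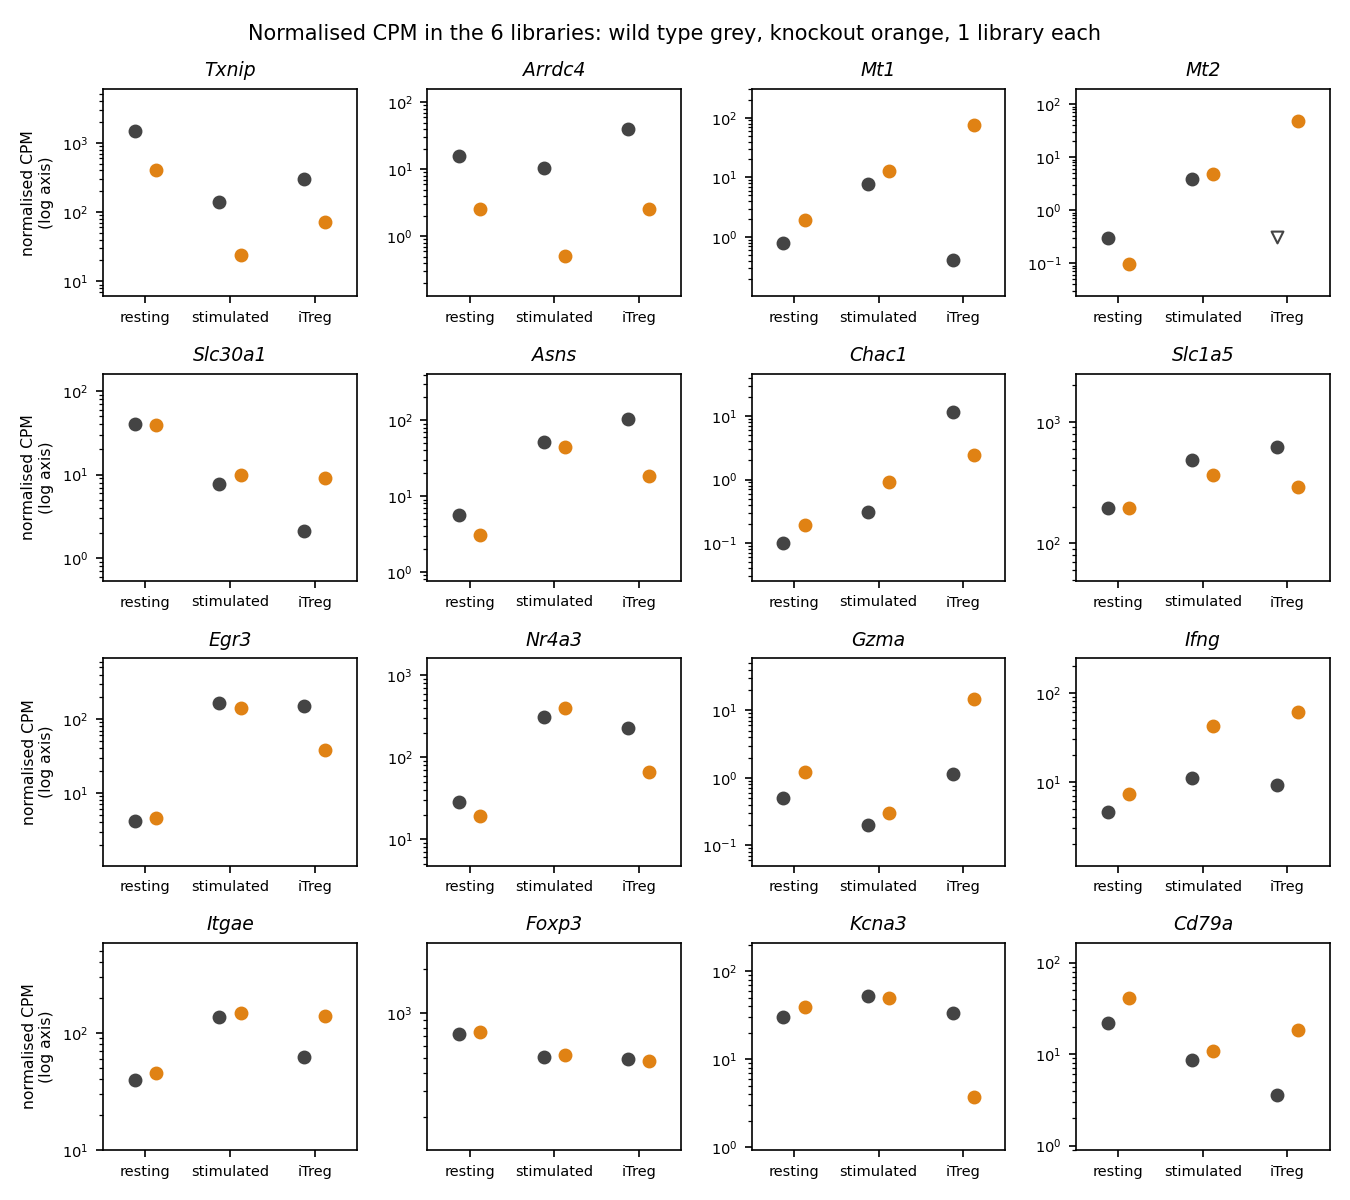
Normalised CPM (y axes, log scale) of 16 genes in the 6 libraries, wild type in grey and knockout in orange, 1 point per library and so without error bars. The open triangle for Mt2 marks a library with 0 counts, drawn at the floor of 3 counts. Txnip and Arrdc4 are apart in all 3 states, and Mt1, Mt2, Asns, Egr3, Nr4a3 and Kcna3 are apart mainly in iTreg cells.

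Cytotoxic and Th1 genes included some of the larger increases. Gzma and Gzmc, which encode granzymes, had 11 and 144 counts and 26 and 197 counts in wild-type and knockout iTreg cells, with log2 folds of 3.49 (2.83 to 4.75) and 2.84 (2.33 to 3.58). Gzmb lay at 71.8 and 166 CPM (1.21, and 0.86 with the length trend removed), and Ctsw, a protease of cytotoxic lymphocytes, at 226 and 560 CPM (1.31 and 0.97). Perforin, Prf1, differed by 0.34 and Fasl by -0.25. Over 10 cytotoxic genes, 4 were 2-fold higher as measured, 2 with the trend removed, and 0 lower. For this and the lists below, 2.65% of all genes were 2-fold higher as measured and 2.10% with the trend removed. Ifng, the main Th1 cytokine, lay at 9.28 and 61.0 CPM in iTreg cells, 11.2 and 42.8 CPM in stimulated and 4.58 and 7.33 CPM in resting cells, so the knockout library was the higher of every pair (iTreg log2 fold 2.69, 2.40 to 3.05). Cxcr3, a Th1-associated chemokine receptor, lay at 18.3 and 51.3 CPM (1.48, 1.24 to 1.75). Tbx21, the Th1 lineage factor T-bet, differed by 0.16 in iTreg cells, against 1.01 in stimulated cells. The Th1 list as a whole had 2 of 12 genes 2-fold higher (Ifng and Cxcr3) and 0 lower. Among 11 chemokine receptors, 4 were 2-fold higher with and without the trend, namely Cxcr3, Cxcr5 (1.63), Gpr15 (1.56) and Cx3cr1 (1.01), and 0 were lower. The cytokines Il4 and Il17a had 0 counts in both iTreg libraries, which allows up to 3 counts in each, and Il10 had 2 and 9 counts.

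The Treg genes had a median close to that of all genes. Of 23 Treg genes, 2 were 2-fold higher and 1 lower as measured (median -0.02, beside 0.06 over all genes). With the trend removed, 3 were higher and 1 lower (0.07, beside 0.02). Shares over all genes were 2.65% higher and 5.25% lower as measured, and 2.10% and 3.70% with the trend removed. The lower Treg gene was Ikzf2 as measured and Tnfrsf9 with the trend removed. Il2ra, the high-affinity IL-2 receptor chain, lay at 3151 and 2981 CPM, and Nt5e, the ectonucleotidase CD73, Nrp1 and Gpr83 differed by -0.07, -0.05 and -0.02. Itgae, the integrin CD103 that TGF-beta induces, lay at 62.6 and 139 CPM in wild-type and knockout iTreg cells (1.15, 1.02 to 1.29), the knockout value being close to the 136 and 146 CPM of stimulated cells. Fgl2, a secreted suppressor molecule, differed by 1.68 (1.25 to 2.21) and Entpd1, the ectonucleotidase CD39, by 0.96 as measured and 1.15 with the trend removed. Ikzf2, the thymic Treg factor Helios, lay at 34.1 and 13.3 CPM in iTreg cells, both far below the 359 to 554 CPM of nTreg cells (-1.34, and -0.76 with the trend removed). Ctla4 differed by -0.43 and Tnfrsf18 by 0.06. In the TGF-beta pathway, 17 genes gave 1 higher and 2 lower as measured and 2 higher and 0 lower with the trend removed. Smad3, which carries the TGF-beta signal to the Foxp3 enhancer, differed by -1.26 (-1.46 to -1.07) as measured and -0.98 with the trend removed, and Furin, the protease that matures TGF-beta, by 0.87 and 1.05. Itgav, an integrin that activates TGF-beta, stood at -1.24 and -0.80. The ligands of the checkpoint receptor PD-1 were both lower, Cd274 at 154 and 69.4 CPM (-1.15, and -1.03 with the trend removed) and Pdcd1lg2 with 423 and 195 counts (-1.10 and -1.02). Il7r, the IL-7 receptor chain, differed by -1.12 (-1.06 with the trend removed).

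Most glycolytic genes, like most genes, stayed within 2-fold. Over 18 glycolysis genes the median was 0.44 as measured and 0.34 with the length trend removed, beside 0.06 and 0.02 over all genes. A 2-fold increase was seen in 1 of them as measured and 0 with the trend removed, and 0 were lower. Of all genes, 2.65% were higher and 5.25% lower as measured, and 2.10% and 3.70% with the trend removed. The higher glycolysis gene was Eno1, an enolase (1019 and 2219 CPM, log2 fold 1.12, 1.09 to 1.16, and 0.90 with the trend removed). Gapdh lay at 2068 and 3577 CPM (0.79 and 0.45) and Pkm at 1089 and 1862 CPM (0.77 and 0.69). On the other side of 0 were 4 of the 18 as measured and 3 with the trend removed, among them the regulators Pfkfb2 (-0.85 and -0.48) and Pfkfb3 (-0.64 and -0.39). Slc2a1, the main glucose transporter of T cells, differed by 0.28 and Hk2, a hexokinase, by -0.14, while Slc2a3, a second glucose transporter, lay at 29.0 and 11.7 CPM (-1.30, -1.64 to -0.99). For short genes the length trend decides the sign or the size of such shifts. Oxidative phosphorylation genes (49, median length 754 bases) had a median of 0.66 as measured and 0.10 with the trend removed, and proteasome genes (30) 0.53 and 0.17. Ribosomal protein genes (81, median length 708 bases) had 0.47 and -0.23, so their direction flipped. The straight line left the shortest decile of all genes, up to 1185 bases, at a median of -0.10. The 20 very long genes had -1.19 and -0.38, with 13 and 2 of them 2-fold lower. Sesn3, a sestrin that restrains mTORC1, was 2-fold lower both ways (-1.28 and -1.42). Xbp1, a secretory stress factor (1.31 and 1.19), its activating kinase Ern1 (-1.55 and -1.39) and Vegfa (-1.37 and -1.31) were likewise past 2-fold both ways. Most members of their lists were not. Among 29 mTOR and nutrient-sensing genes, 1 was higher and 2 lower both ways. Secretory stress and chaperone genes had 1 and 1 of 29, and hypoxia genes 1 and 1 of 17, also both ways.

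**Figure D4:**
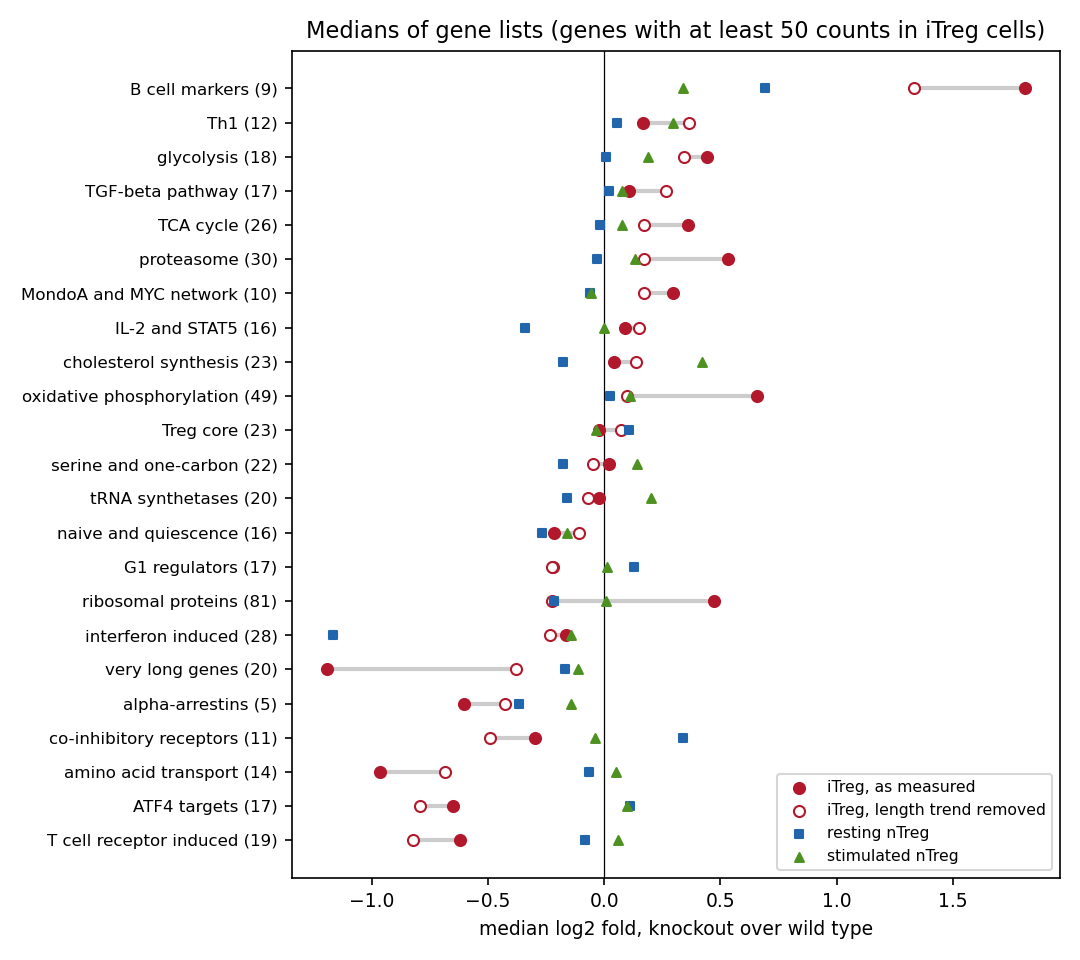
Median log2 fold of knockout over wild type (x axis) for 23 gene lists, with the number of genes that had at least 50 counts in iTreg cells in brackets. Filled and open red circles are iTreg cells as measured and with the length trend removed, blue squares and green triangles are resting and stimulated nTreg cells. The T cell receptor, ATF4 and amino acid transport lists lie lowest in iTreg cells with the trend removed and near 0 in nTreg cells, very long genes lie lowest as measured, the interferon list lies at -1.17 in resting cells only, and B cell markers lie highest.

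Interferon-induced genes, which were lower in knockout resting cells (median -1.17), had a median of -0.17 in iTreg cells. Of 28 genes 5 were 2-fold lower and 1 higher with and without the length trend, beside 5.25% of all genes lower as measured and 3.70% with the trend removed. The 5 were Ifih1, an RNA sensor (-1.55), and Ifi204, Oasl2, Trim12a and Trim30d. Trim12a has a near-identical copy, and the sum with Trim12c differed by -0.97, short of 2-fold. Ifi204, Oasl2, Trim12a and Trim30d were lower in the knockout library of both nTreg pairs as well. Xaf1, an inhibitor of apoptosis inhibitors, was higher (1.38), as in stimulated cells (1.27). Acacb, an acetyl-CoA carboxylase, was higher in all 3 pairs by 2.09, 2.52 and 2.59 in iTreg, resting and stimulated cells. Oasl2, Trim56, Acacb and Sap25 lie on chromosome 5 within 250 protein-coding genes of Mlxip. Of 303 protein-coding genes in that window, 4.62% were 2-fold apart with the trend removed, against 5.21% of 9554 protein-coding genes elsewhere.

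Some markers of other cell types differed with genotype. Of 9 B cell genes with at least 50 counts, 7 were 2-fold higher in knockout iTreg cells as measured and 6 with the length trend removed, with 0 lower. Shares of all genes 2-fold higher were 2.65% and 2.10%. Cd79a, a signalling subunit of the B cell receptor, had values of 3.57 and 18.1 CPM, and Cd79b, its partner, had 36 and 102 counts (log2 fold 1.46). The MHC class II genes H2-Aa (1.81) and H2-Eb1 (2.04), on the same list, were higher too. Summed over 15 B cell genes the level was 245 CPM in the wild-type and 379 CPM in the knockout iTreg library, within the 221 to 727 CPM of the nTreg libraries, and 0 of the 15 were absent from both iTreg libraries. CD8 and NK cell genes summed to 134 and 241 CPM, with Cd8a at 56.3 and 108 CPM (0.94), and Ncr1 and Klra8 at 0 in both libraries. These values move in the same direction as Ifng, Gzma, Gzmc, Cxcr3 and Cxcr5, and their part in those differences was not tested. Myeloid genes summed to 36.6 and 28.0 CPM and plasma and mast cell genes to 6.83 and 6.76 CPM.

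Whether a genotype difference was particular to iTreg cells was tested for each of 13365 genes with the edgeR quasi-likelihood test, as the iTreg effect minus the mean nTreg effect, with Benjamini-Hochberg adjustment. The fit has all 6 libraries and 1 residual degree of freedom, which is the difference between the resting and the stimulated genotype effect. The iTreg libraries add nothing to it. The spread of each gene is drawn toward a trend over all genes, so the p-values do not rest on its 2 nTreg pairs alone. They assume that resting and stimulated cells share a genotype effect and that iTreg libraries vary like nTreg libraries. The test passed 23 genes (0.172%) in which the effect was higher in iTreg cells and 119 (0.890%) in which it was lower. The 119 were long (median 5080 bases) and the 23 short (1353 bases). With the length trend of each library taken out, 7 (0.0524%) and 25 (0.187%) passed, and all 32 were among the 142. These calls depend on the method: DESeq2 called 11 higher and 83 lower, including 20 of the 32, and limma on log2(FPKM + 1) called 0, with 1823 genes at an unadjusted p under 0.05. The higher 7 were Mt1, Mt2, Gzmc, Sap25, the tyrosine kinase gene Src, the water and glycerol channel gene Aqp3 and Xdh, which encodes xanthine dehydrogenase. Mt1 differed by 6.66 (standard error 0.53, edgeR adjusted p = 0.0023, and 0.012 with the length trend removed). Sap25 had 12 and 196 counts in wild-type and knockout iTreg cells and 257 and 363 in resting cells (difference 3.68). Src lay at 7.96 and 40.6 CPM in iTreg cells, with nTreg values from 16.4 to 25.8 CPM (2.45, standard error 0.37). Aqp3 lay at 56.3 and 220 CPM in iTreg cells, above the 4.09 to 14.2 CPM of nTreg cells (2.21). In Gzmc the direction differed, with knockout lower in resting (31 and 8 counts) and stimulated cells (29 and 11) and higher in iTreg cells.

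Among the 25 lower ones were Kcna3, Npas4, Asns, Atf5, Egr1 and Egr3, the ubiquitin ligase gene Cbl that restrains receptor signalling, the phosphatase gene Dusp4, Tnfsf8 (CD30 ligand) and Trat1, an adaptor of the T cell receptor complex. Kcna3 lay at 33.1 and 3.69 CPM in iTreg cells, against 30.6 and 39.8 CPM in resting and 52.7 and 49.5 CPM in stimulated cells, so the knockout iTreg library alone was low (difference -3.30, standard error 0.33, edgeR adjusted p = 0.0046, and 0.012 with the trend removed). Cbl lay at 204 and 41.2 CPM in iTreg cells and between 99.7 and 215 CPM in nTreg cells (-2.15). Egr3 differed by -1.82 (edgeR adjusted p = 0.017 and 0.040), Asns by -2.09 (0.018 and 0.038) and Atf5 by -2.20 (0.011 and 0.019). By list, 7 of 20 T cell receptor-induced genes tested passed as measured and 2 with the trend removed, all with a lower effect. Of 17 ATF4 targets tested, 2 passed both ways, also lower. Beside these, 0.890% of all genes tested passed as lower as measured and 0.187% with the trend removed. Txnip and Arrdc4 did not pass, with differences of 0.13 (standard error 0.31) and -0.79 (0.60). Slc30a1 missed the threshold at 1.96 (edgeR adjusted p = 0.057), as did Ifng at 1.27 (adjusted p = 0.19) and Chac1 at -3.65 (adjusted p = 0.094).

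**Figure D5:**
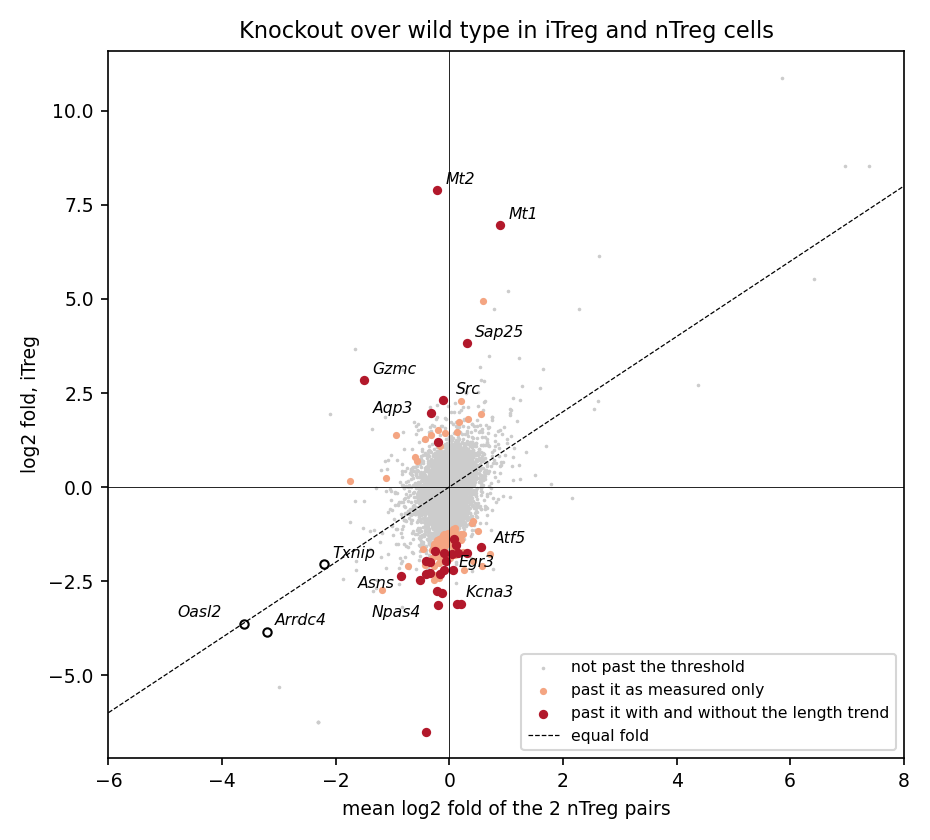
Log2 fold of knockout over wild type in iTreg cells (y axis) against the mean log2 fold of the resting and stimulated nTreg pairs (x axis), 1 point per gene with at least 50 counts in iTreg cells. Dark red genes passed the edgeR test of the difference with and without the length trend, pale red ones as measured only, and the dashed line marks equal folds. Mt1, Mt2, Sap25 and Gzmc lie far above the line and Kcna3, Npas4 and Asns below it, while Txnip, Arrdc4 and Oasl2 (open circles) lie on or near it.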

How the data were processed

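Folds were computed from expected counts, the estimated reads of each gene deposited by the authors. FPKM values, also deposited, served as an alternative, and the deposited transcript length gave the length trend. Bowtie2, HISAT and mm9 appear, with no role, in the submitters' processing notes. The quantifier and strandedness are not given in the sources used here. Counts were rounded (76.0% were whole within 0.005), and 17711 of 17759 identifiers had a symbol in a GRCm38.p6 table, used for names, gene order and promoters. Library totals were 9760285 to 10185664.

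TMM factors came from edgeR 4.0.16 (R 4.3.3) over 6 libraries. Log2 folds used a prior count of 2, a minimum of 50 counts in the higher library, a 2-fold threshold and exact conditional (Clopper-Pearson) 95% intervals, which cover counting error only. The line of log2 fold on log2 length was removed around the median length of 2872 bases. State differences used edgeR quasi-likelihood (filterByExpr, at least 10 counts, 15 in total, adjusted p under 0.05). The calculations were tested on simulated data. Alternatives used DESeq2 1.42.0, limma 3.58.1 and statsmodels.

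Named genes were Mlxip, Txnip, Arrdc4, Foxp3, the 15 largest increases and 15 largest decreases ranked by the smaller fold with and without the trend, core members and up to 6 others of each list, and up to 10 genes a direction in the difference test. Predicted genes, pseudogenes, receptor segments and Xist, Tsix and Y-linked genes were left out of the ranking. Members and lists were chosen with earlier results of these data known. A ranked gene and a B cell marker are not reported here.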

Additional observations from a re-analysis of the deposited data

Results flagged for a closer look

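The genotype effect differed between iTreg and nTreg cells, by the edgeR quasi-likelihood test with 1 residual degree of freedom, in 23 genes where it was higher and 119 where it was lower in iTreg cells. Values below are the log2 difference, iTreg minus nTreg. With and without the length trend, lower effects were those of Kcna3 (-3.30), Npas4 (-2.74), Zbed6 (-2.57), Gprin3 (-2.26), Atf5 (-2.20), Cbl (-2.15), Nrip1 (-2.13), Asns (-2.09), Eea1 (-2.05), Trim56 (-1.97), Gpr174 (-1.92), Elk4 (-1.89), Strn (-1.84), Egr3 (-1.82), Alg10b (-1.68), Egr1 (-1.67), Trat1 (-1.66), Tnfsf8 (-1.58) and Dusp4 (-1.47). The higher effects were those of Xdh (1.40), Aqp3 (2.21), Src (2.45), Sap25 (3.68), Gzmc (4.59), Mt1 (6.66) and Mt2 (11.73).

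As measured but not with the length trend removed, the test also passed Slc1a4 (-2.68), Podnl1 (-2.48), Ahnak (-2.46), Vps13c (-2.13), Nr4a3 (-1.74), Fosl2 (-1.69), Nr4a2 (-1.68), Rel (-1.59), Kmt2c (-1.57), Kmt2a (-1.52), Smad3 (-1.49), Atm (-1.47), Slc2a3 (-1.39), Itgav (-1.33), Egr2 (-1.31), Rictor (-1.29), Utrn (-1.22), Mga (-1.18) and Sesn3 (-1.17). The higher ones were H2-Aa (1.50), Myadm (1.75), Fes (2.12), Ifitm3 (2.33) and Ifit3 (2.69). Ifit3 was within counting error of 0 in iTreg cells (0.16, -0.30 to 0.63) and lower in resting cells (-2.81). Amd2 (-14.34), Zfp965 (-9.64), Ttn (-7.46) and Mt2 have libraries at 0 counts, so these fitted values are no bounds.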

How the results depend on the processing

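The iTreg counts stayed within 1.5 times under DESeq2 size factors, total counts, a minimum of 100 counts, a prior count of 0.5, FPKM and a lowess length curve. A minimum of 20 counts raised the higher genes to 409 as measured and 333 with the length trend removed. The slope on length ranged from -0.31 to -0.35, also among genes of equal length in both libraries. No named gene or list median at least 2-fold apart changed sign under these settings. The all-gene median as measured lay between -0.002 and 0.06 under them, so a sign change at that size was unlikely beforehand. The state difference moved most. Genes with a higher effect in iTreg cells numbered 14 with DESeq2 size factors, 113 without a filter, 7 with length offsets, 11 in DESeq2 and 0 in limma on log2(FPKM + 1), where 1823 had an unadjusted p under 0.05. Genes with a lower effect numbered 353 without a filter, 25 with length offsets and 0 in limma. DESeq2 gave adjusted p-values to 6718 genes, and 66 of its 94 calls were among the 142 of edgeR. The cause of the other moves was not tested. Leaving out a library was not possible, since an iTreg library removes the contrast and an nTreg library the residual degree of freedom. No paired analysis was possible because the labels carry no replicate numbers. With 50 counts against 25, a log2 fold is uncertain by 0.74, so small differences in low genes were not detectable.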

Other observations

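A few low or other genes of interest, chosen after their values were seen, are given here. Il24, a cytokine of the IL-10 family, was absent from the wild-type iTreg library and had 32 counts in the knockout one, below the minimum of 50, with 4 and 10 counts in stimulated nTreg cells. Tgfb3, a TGF-beta ligand, had 10 and 46 counts in iTreg cells, also below the minimum. Aldh1l2, a mitochondrial folate enzyme, had 33 and 2 counts, a log2 fold of -3.12 with an interval of -7.14 to -2.07. Fes, a tyrosine kinase gene, stood at 10.7 and 52.7 CPM in wild-type and knockout iTreg cells and between 2.92 and 5.71 CPM in nTreg cells. Tnfsf11, which encodes RANKL, stood at 44.0 and 21.2 CPM in iTreg cells and between 20.2 and 27.3 CPM in nTreg cells. Bcl2a1d, a survival factor with near-identical copies, stood at 21.6 and 9.42 CPM.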
